A study of Mus musculus with 3 samples.

Results

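The genes described here are those that came into detection by E14.5 in male gonads of mouse embryos lacking Cyp26b1. They were selected on the scanner's own detection flag: the brightest probe of the gene was well above background on both E14.5 arrays and on neither E12.5 array. The rule found 281 of the 16620 genes that the array's RefSeq accessions name, or 1.69%. Because the signals at E12.5 and E14.5 chose these genes, their difference between those stages is given as a description, with no test. The E13.5 flags took no part in the choice. The E13.5 signals entered only in picking the brightest probe, by its mean over the 6 arrays, and 47 members have another named probe. The number of switched-on genes was 171 on the scanner's positive-and-significant flag. It was 466 when the first E12.5 array was left out and 424 when the second E14.5 array was.

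Gonads were taken at E12.5, E13.5 and E14.5, and each stage has 1 sample of 2 arrays, called biological duplicates in the series' design. All embryos were male, Cyp26b1-/- and of the MCH mouse line, so by label the 3 groups differ in age and share the deletion. RNA was measured on 1-colour Agilent expression arrays. Arrays of another genotype were not analysed here, so no value below compares the deletion with an intact gene. Whole gonads were used, and more cells of a type cannot be told apart from more RNA per cell.

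The product of Cyp26b1 is a cytochrome P450 enzyme that degrades retinoic acid. In the normal fetal testis this enzyme shields male germ cells from retinoic acid, which in the fetal ovary prompts germ cells to enter meiosis. In the same days the testis gains fetal Leydig cells, which make androgen, and the male germ cells leave the cell cycle and begin a male programme that includes the piRNA pathway. Many genes of late spermatogenesis are silent in other tissues, and several of their families are X-linked.

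Markers of germ cells and Sertoli cells were detected at each stage. Of 8 germ cell markers, 8 were above background on every array, and of 8 Sertoli cell markers 7 or 8 were. Germ cell markers summed, in units of each array's 75th percentile, to 36.0 and 46.7 on the E12.5 arrays, 71.5 and 77.4 on the E13.5 arrays and 75.6 and 63.3 on the E14.5 arrays, and 5 of 8 were called higher at E14.5 than at E12.5 (limma, adjusted p under 0.05 over all genes tested). In that comparison 25.6% of all 13484 genes tested were called higher and 20.9% lower. The fetal Leydig list had 6 of 6 markers above background on the later arrays and 5 of 6 at E12.5. Without Lhcgr, which is a member, its sum was 2.73 and 3.82 on the E12.5 arrays, 33.96 and 39.91 on the E13.5 arrays and 59.4 and 78.8 on the E14.5 arrays, with 5 of 5 called higher at E14.5 than at E12.5. Sertoli markers without the member Fshr had 2 of 7 called higher and 1 lower. Peritubular and smooth muscle markers summed to 13.5 and 17.3 on the E12.5 arrays, 30.7 and 36.7 on the E13.5 arrays and 47.4 and 56.7 on the E14.5 arrays, with 5 of 7 called higher and 0 lower. Skeletal muscle markers without the member Myog summed to 1.44 and 1.77 on the E12.5 arrays, 2.70 and 3.70 on the E13.5 arrays and 4.45 and 5.12 on the E14.5 arrays, with 4 of 6 called higher. Macrophage markers summed to 1.77 and 2.12 on the E12.5 arrays, 2.14 and 2.03 on the E13.5 arrays and 2.91 and 2.82 on the E14.5 arrays, with 6 of 9 called higher at E14.5 than at E12.5. Among other lists, endothelium markers had 0 of 7 called higher and 3 lower, and mesonephros and duct markers 1 of 8 and 4. Erythroid markers had 1 of 8 called higher and 5 lower, and interstitial progenitor markers 0 of 6 and 1. Neuron and glia markers summed to 1.08 and 1.33 at E12.5 and 2.08 and 2.42 at E14.5, with 2 of 9 higher and 1 lower. Adrenal cortex markers summed to 0.42 and 0.46 at E12.5 and 1.12 and 0.92 at E14.5, with 1 of 4 called higher. Lung and liver markers were not among the lists. The part of these cell types in the detection of the genes below was not tested.

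The E12.5 arrays shared a slide, and the 4 later arrays shared another. Stage and slide therefore cannot be told apart in any comparison with E12.5. The file headers give a spread of the negative control spots of 16.1 on both E12.5 arrays and of at most 11.3 on the later arrays. The lowest signal called well above background was -6.41 and -6.21 for the E12.5 arrays, -6.97 and -6.37 for the E13.5 arrays and -6.46 and -6.24 for the E14.5 arrays, all as log2 signal over the array's 75th percentile. All levels below are on that scale, and levels of different probes are not comparable. No spot was saturated.

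Gains outnumbered losses across the slides. Against the 281 genes gained by E14.5 (1.69% of named genes), 132 genes (0.794%) were in the opposite state, on both E12.5 arrays and on neither E14.5 array. From E12.5 to E13.5, 263 genes were gained on both arrays and 62 were lost. Within the later slide the counts were nearly equal: 54 genes were on both E14.5 arrays and off both E13.5 arrays, and 59 were the reverse. The gained genes were mostly detected a day earlier. At E13.5, 185 of the 281 (65.8%) were above background on 2 arrays, 56 (19.9%) on 1 array and 40 (14.2%) on none. The genes in the opposite state had 29, 55 and 48 in these classes.

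**Figure D1:**
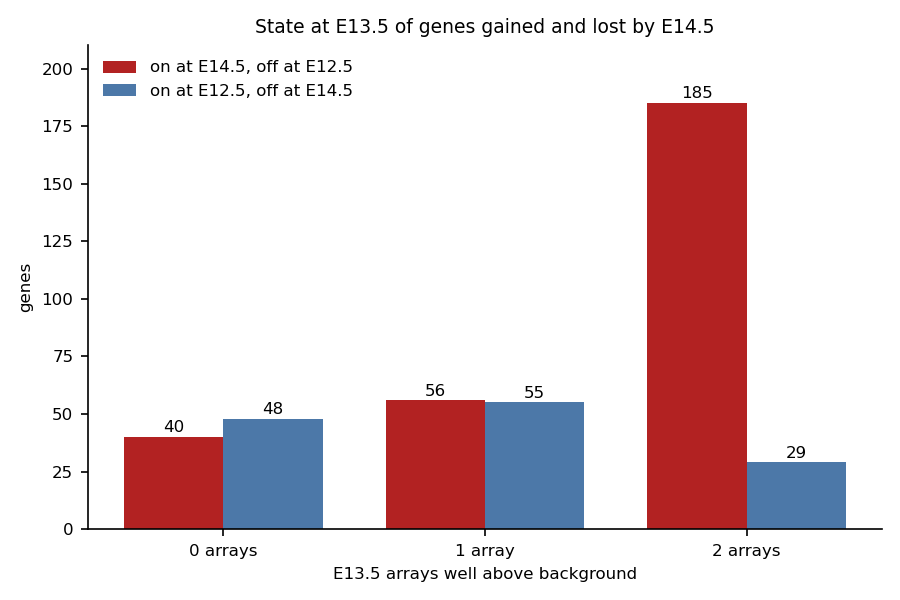
Number of genes by how many E13.5 arrays were well above background, for the 281 genes on at E14.5 and off at E12.5 (red, left bars) and the 132 genes in the opposite state (blue, right bars). Of the gained genes 185 were above background on both E13.5 arrays.

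Promoter windows are shown for 7 members that the results turn on. Promoter CpG content took no part in the choice of the 281 genes and was low in many of the 281. RefSeq's windows run from 250 bases before to 50 after the start on GRCm38.p6, and 216 of the 281 genes have at least 1 window. CpG dinucleotides are in capitals. The positions are Lypd4, chr7:24869642-24869941, minus strand; Figla, chr6:86016941-86017240, plus strand; Terb1, chr8:104509838-104510137, minus strand. Further positions are Esx1, chrX:137120277-137120576, minus strand; Nanos2, chr7:18987274-18987573, plus strand; Ctag2, chrX:65047394-65047693, plus strand. The last is Spag16, chr1:69826720-69827019, plus strand.
Lypd4: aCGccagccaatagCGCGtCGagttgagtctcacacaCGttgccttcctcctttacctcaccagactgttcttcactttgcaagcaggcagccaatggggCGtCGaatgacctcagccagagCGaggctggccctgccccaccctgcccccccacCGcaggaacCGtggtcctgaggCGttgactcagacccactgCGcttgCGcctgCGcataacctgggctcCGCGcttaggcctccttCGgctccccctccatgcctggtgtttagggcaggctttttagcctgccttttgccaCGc
Figla: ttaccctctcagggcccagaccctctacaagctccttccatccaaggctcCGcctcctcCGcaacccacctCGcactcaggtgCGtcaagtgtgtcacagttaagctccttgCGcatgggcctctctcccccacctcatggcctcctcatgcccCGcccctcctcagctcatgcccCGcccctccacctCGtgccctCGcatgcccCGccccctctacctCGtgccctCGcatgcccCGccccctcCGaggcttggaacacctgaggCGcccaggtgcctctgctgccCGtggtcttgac
Terb1: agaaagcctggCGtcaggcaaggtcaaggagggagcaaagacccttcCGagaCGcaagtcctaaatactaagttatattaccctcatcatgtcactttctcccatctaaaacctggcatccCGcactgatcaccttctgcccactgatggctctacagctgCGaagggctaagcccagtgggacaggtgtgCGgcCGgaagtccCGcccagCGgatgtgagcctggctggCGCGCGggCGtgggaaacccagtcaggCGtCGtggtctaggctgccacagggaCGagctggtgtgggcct
Esx1: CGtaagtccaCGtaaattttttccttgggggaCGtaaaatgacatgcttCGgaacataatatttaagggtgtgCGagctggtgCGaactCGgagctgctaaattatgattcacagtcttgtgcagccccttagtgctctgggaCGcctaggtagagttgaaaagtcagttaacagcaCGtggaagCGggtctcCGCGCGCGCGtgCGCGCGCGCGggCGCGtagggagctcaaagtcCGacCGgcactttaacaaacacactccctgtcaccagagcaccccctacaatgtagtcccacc
Nanos2: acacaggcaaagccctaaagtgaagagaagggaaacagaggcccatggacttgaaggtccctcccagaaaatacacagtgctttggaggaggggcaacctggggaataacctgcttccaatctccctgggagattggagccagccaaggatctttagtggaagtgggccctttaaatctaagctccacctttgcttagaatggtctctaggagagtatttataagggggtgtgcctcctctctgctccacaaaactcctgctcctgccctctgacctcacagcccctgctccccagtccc
Ctag2: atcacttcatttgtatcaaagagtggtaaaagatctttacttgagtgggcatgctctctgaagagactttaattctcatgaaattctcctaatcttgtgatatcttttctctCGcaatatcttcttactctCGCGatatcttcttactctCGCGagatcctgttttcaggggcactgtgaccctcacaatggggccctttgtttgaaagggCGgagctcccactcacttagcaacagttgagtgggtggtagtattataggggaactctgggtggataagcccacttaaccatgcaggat
Spag16: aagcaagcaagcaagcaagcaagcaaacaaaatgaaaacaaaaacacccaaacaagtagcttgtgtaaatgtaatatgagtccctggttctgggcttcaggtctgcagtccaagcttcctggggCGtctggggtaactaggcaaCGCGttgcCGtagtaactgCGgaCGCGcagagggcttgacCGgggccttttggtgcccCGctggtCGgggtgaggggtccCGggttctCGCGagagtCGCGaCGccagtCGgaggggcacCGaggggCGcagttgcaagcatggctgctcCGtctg

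CpG content differed widely among these windows. Esx1 had 24 CpGs and an observed over expected CpG ratio of 1.10, Spag16 had 20 and 0.80, and Lypd4 had 18 and 0.643. Terb1 and Figla had 16 CpGs each, with ratios of 0.606 and 0.573. Ctag2 had 6 and 0.413, and Nanos2 had none in its window. Esx1, Spag16, Lypd4 and Terb1 lay above a ratio of 0.6, unlike most windows of the gained genes.

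Over all 262 windows of the gained genes the median CpG ratio was 0.361 and the median GC content 53.0%. The 12857 windows of genes above background on all 6 arrays had a median ratio of 0.724 and a GC content of 60.3%. A ratio of at least 0.6 was reached by 30.2% of the gained genes' windows and by 64.5% of those of the always detected genes. The 16553 windows of all named genes had a median ratio of 0.638 and a GC content of 58.0%, with 53.3% at or above 0.6. The windows of the genes in the opposite state had a median of 0.282, with 18.5% at or above 0.6. Within the gained genes, the median ratio was 0.396 for those detected on 2 E13.5 arrays, 0.374 for 1 array and 0.273 for 0 arrays. Windows of 1 gene may overlap, and these are descriptions with no test.

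**Figure D2:**
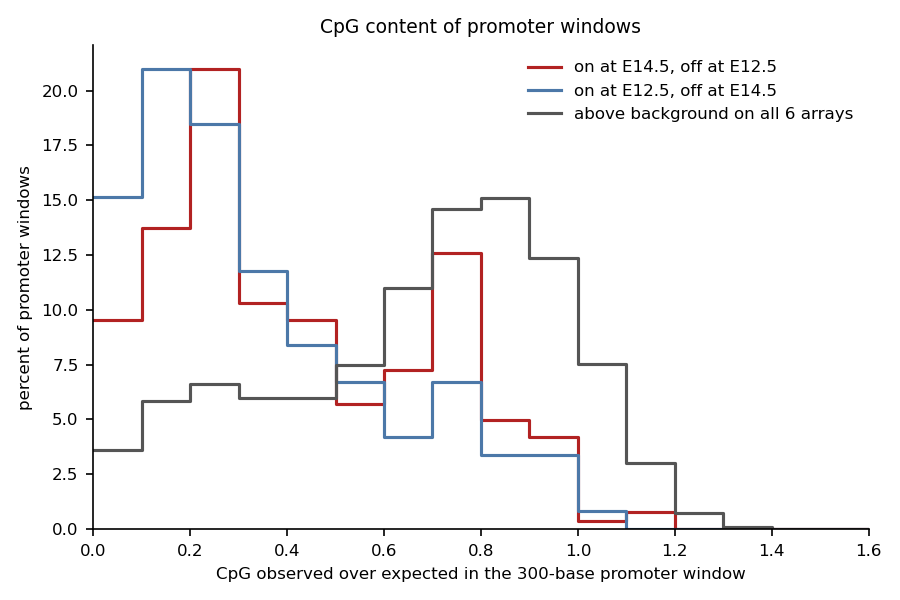
Share of promoter windows (percent, vertical axis) by their CpG observed over expected ratio in bins of 0.1 (horizontal axis), for genes on at E14.5 and off at E12.5 (red), genes in the opposite state (blue) and genes above background on all 6 arrays (grey). The gained and the lost genes peak below 0.3 and the always detected genes above 0.7.

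Short motifs were counted on both strands of the same windows. The nuclear receptor half-site AGGTCA, which retinoic acid receptors bind in pairs, was in 16.4% of the gained genes' windows, against 13.9% of the 16553 windows of all named genes. AAGGTCA, the site of the gonadal factor NR5A1, contains AGGTCA and was in 3.05% against 3.82%. CNCCTCAG, the motif of the meiosis factor STRA8, was in 11.8% against 8.83%. ACAATGG, bound by SOX factors, was in 3.44% against 2.72%. TGACGTCA, the cyclic AMP response element, was in 1.15% against 2.41%, and TTCCCGCC, an E2F site, in 1.53% against 3.06%. Exact pairs of AGGTCA in the same direction, 5 or 2 bases apart and named DR5 and DR2, were in 0 of the 262 windows and in 1 and 0 of the 16553. Lypd4, Terb1 and Nanos2 each held AGGTCA in the printed window, in Terb1 as part of the NR5A1 site AAGGTCA. Lypd4 and Figla held the STRA8 motif and Ctag2 the SOX site, while Esx1 and Spag16 held none of these motifs. These are matches of letters in a short window and say nothing of binding.

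Lypd4, which encodes a cell surface protein of sperm, had the largest bound of all members. It had signals of -7.14 and -7.53 on the E12.5 arrays, -1.73 and -0.93 on the E13.5 arrays and -0.57 and -0.58 on the E14.5 arrays. Its E14.5 signal was at least 53.3-fold over the limit of detection at E12.5, and at E13.5 it was at least 31.7-fold over it. The log2 difference between E14.5 and E13.5 was 0.75 ± 0.27 (SE, n = 2 arrays per stage), which did not pass the limma test (adjusted p = 0.236). Such bounds set the mean log2 signal against each E12.5 array's detection limit, its dimmest well-above-background signal, or against the probe's own signal where that was higher. Where an array's limit was used, the bound is a lower limit, so the order of bounds is not an order of changes. Where the probe's own signal was higher on both E12.5 arrays, as for Ccl3 and Cldn1, it is the difference of stage means.

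Figla encodes the oocyte transcription factor that switches on zona pellucida genes. It had signals of -6.87 and -6.22 on the E12.5 arrays, -2.96 and -2.21 on the E13.5 arrays and -1.26 and -0.95 on the E14.5 arrays, at least 37.0-fold over E12.5. No array of one stage overlapped another. The oocyte list gave 2 other genes out of 23 tested. Oas1d, an oocyte member of the 2'-5' oligoadenylate synthetase family, had signals of -7.05 and -7.42 on the E12.5 arrays, -5.70 and -5.55 on the E13.5 arrays and -4.74 and -4.61 on the E14.5 arrays. Nlrp4f, of an oocyte NLRP family, was gained at least 3.06-fold. The other 20 tested oocyte genes held 6 called higher at E14.5 than at E12.5 (30.0%) and 8 called lower (40.0%). Over all 13484 genes tested, 25.6% were called higher and 20.9% lower in that comparison.

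Terb1, which ties meiotic chromosome ends to the nuclear envelope, had signals of -8.24 and -6.33 on the E12.5 arrays, -3.58 and -2.73 on the E13.5 arrays and -2.22 and -1.77 on the E14.5 arrays. This was a gain of at least 20.0-fold by E14.5 and at least 8.93-fold by E13.5. Ccnb3 encodes an X-linked meiotic cyclin and had signals of -6.23 and -6.73 on the E12.5 arrays, -2.99 and -2.42 on the E13.5 arrays and -1.95 and -0.80 on the E14.5 arrays, at least 28.8-fold over E12.5. The 2 genes were the members among 39 meiosis genes measured. Of the other 37, which were already detected or did not meet the rule, 29 were called higher at E14.5 than at E12.5 (78.4%) and 2 lower (5.41%), beside the 25.6% and 20.9% of all genes and the germ cell marker sums given above. On all 6 arrays, 36 of the 39 genes were above background.

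Among genes of male germ cells and the piRNA pathway, 4 of 40 on the array were gained. Nanos2, an RNA-binding regulator of male germ cell fate, had signals of -8.32 and -7.04 on the E12.5 arrays, -3.80 and -3.49 on the E13.5 arrays and -3.32 and -3.62 on the E14.5 arrays. It was gained at least 7.16-fold by E14.5 and at least 6.34-fold by E13.5, and the E14.5 and E13.5 arrays overlapped. Piwil1, a Piwi protein that carries piRNAs, had signals of -7.88 and -6.93 on the E12.5 arrays, -5.50 and -4.74 on the E13.5 arrays and -4.37 and -4.05 on the E14.5 arrays, at least 4.29-fold over E12.5. Henmt1, which methylates the ends of piRNAs, was gained at least 4.75-fold, and Mageb18, an X-linked MAGE gene, at least 2.04-fold. Of the other 32 tested genes of this list, 18 were called higher at E14.5 than at E12.5 (56.3%) and 6 lower (18.8%). These stand beside 25.6% and 20.9% of all genes tested, and again beside the higher germ cell marker sums.

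Genes of later sperm development were gained as well, 3 of 46 on the array. Meig1, needed for the shaping of sperm heads and tails, had signals of -6.80 and -6.02 on the E12.5 arrays, -4.00 and -4.04 on the E13.5 arrays and -3.54 and -3.32 on the E14.5 arrays, at least 6.90-fold over E12.5. Fam205c was gained at least 16.3-fold. The other 25 tested genes of this list held 9 called higher at E14.5 than at E12.5 (36.0%) and 4 called lower (16.0%). All genes tested had 25.6% and 20.9%. Dpep3, a dipeptidase gene of the testis, had signals of -7.69 and -7.19 on the E12.5 arrays, -3.94 and -3.50 on the E13.5 arrays and -2.66 and -2.05 on the E14.5 arrays. Outside that list, members included the axonemal dynein genes Dnali1 (at least 5.79-fold) and Dnah11 (at least 3.90-fold), and Adcy10, the soluble adenylyl cyclase of sperm (at least 4.79-fold). Dnali1 and Dnah11 were chosen after their values were seen.

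Somatic hormone receptors entered detection too. Lhcgr, the luteinizing hormone receptor gene of Leydig cells, had signals of -8.31 and -8.12 on the E12.5 arrays, -4.76 and -4.34 on the E13.5 arrays and -4.16 and -3.95 on the E14.5 arrays. Its gain was at least 4.79-fold by E14.5 and at least 3.40-fold by E13.5, beside the sums of the other Leydig markers given above. Of the other 40 tested steroid and Leydig genes, 24 were called higher at E14.5 than at E12.5 (60.0%) and 4 lower. Fshr, the follicle-stimulating hormone receptor gene of Sertoli cells, had signals of -7.57 and -6.42 on the E12.5 arrays, -6.35 and -6.45 on the E13.5 arrays and -5.20 and -5.10 on the E14.5 arrays. It was above background on 1 of the E13.5 arrays and at least 2.24-fold over E12.5 at E14.5. Tsx, an X-linked testis gene, was gained at least 1.64-fold. Of the other 35 tested Sertoli genes, 11 were called higher at E14.5 than at E12.5 (31.4%) and 8 lower (22.9%). These lie near the shares over all genes, 25.6% and 20.9%, which also stand beside the steroid and Leydig counts.

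Genes best known from other tissues were also gained. Sftpc, the surfactant protein C gene of lung, had signals of -6.13 and -7.61 on the E12.5 arrays, -3.48 and -3.03 on the E13.5 arrays and -1.24 and -0.71 on the E14.5 arrays, at least 36.7-fold over E12.5. The tight junction gene Cldn1 had signals of -6.07 and -6.00 on the E12.5 arrays, -4.83 and -4.76 on the E13.5 arrays and -3.73 and -3.13 on the E14.5 arrays. Its difference of means was 6.05-fold over E12.5, and its second probe met the rule as well. Of 54 epithelial genes on the array, 5 were gained and 3 were in the opposite state. Of the other 35 tested, 8 were called higher at E14.5 than at E12.5 (22.9%) and 14 lower (40.0%). All genes tested had 25.6% called higher and 20.9% lower. Slc26a4, an anion exchanger gene, was gained at least 1.54-fold. Muc4 and Upk1a had another probe above background at E12.5, so they carry no bound.

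Of contractile genes, the muscle regulator gene Myog had signals of -6.46 and -6.10 on the E12.5 arrays, -4.34 and -4.32 on the E13.5 arrays and -3.86 and -4.50 on the E14.5 arrays, at least 4.22-fold over E12.5, and Pcp4, a calmodulin regulator gene, was gained at least 2.51-fold. The sums of the other skeletal muscle markers and of the smooth muscle markers, given above, were higher at E14.5 as well. The other 31 tested contractile genes held 16 called higher at E14.5 than at E12.5 (51.6%) and 5 called lower (16.1%). Of immune genes, the lectin gene Clec4d was gained at least 1.90-fold. The chemokine gene Ccl3 had signals of -6.34 and -5.82 on the E12.5 arrays and -5.45 and -5.88 on the E14.5 arrays. Its difference of means was 1.34-fold, and the arrays of the 2 stages overlapped. Among the other 52 tested immune genes, 23 were called higher at E14.5 than at E12.5 (44.2%) and 1 lower (1.92%), beside the macrophage sums given above. Of signalling genes, Rspo2, which strengthens Wnt signals, had signals of -8.09 and -7.99 on the E12.5 arrays, -6.28 and -5.90 on the E13.5 arrays and -4.98 and -4.03 on the E14.5 arrays, at least 3.50-fold. Bmp8b was gained at least 2.64-fold and Fgf21 at least 1.95-fold. Of the other 43 tested signalling genes, 16 were called higher at E14.5 than at E12.5 (37.2%) and 8 lower (18.6%). Beside the contractile, immune and signalling counts stand 25.6% of all genes tested called higher and 20.9% lower. The sperm, immune, neural and signalling lists each held 1 gene in the opposite state. No member belonged to the lists of retinoic acid (40 on the array), neural (56), vascular (29) or cell cycle arrest genes (38).

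Among the other members with the largest bounds that were on at both E13.5 arrays, Esx1, an X-linked homeobox gene of the testis and placenta, had signals of -7.62 and -6.70 on the E12.5 arrays, -4.79 and -4.01 on the E13.5 arrays and -2.16 and -1.36 on the E14.5 arrays, at least 23.5-fold over E12.5. Dcaf8l, on the X chromosome, was gained at least 16.0-fold and 4930524B15Rik at least 19.6-fold. Members on 1 array at E13.5 had smaller bounds. The highest was Ctag2, an X-linked cancer/testis antigen gene, with signals of -8.17 and -8.03 on the E12.5 arrays, -6.40 and -5.34 on the E13.5 arrays and -4.01 and -2.90 on the E14.5 arrays, at least 7.25-fold. Neil2, a DNA repair glycosylase gene, followed at 4.34-fold, Ssxb3 at 3.85-fold, Igbp1b at 3.54-fold and Ssx9 at 3.17-fold. Pkp1, Prss45, Olfr283, Nek5 and Atp13a4 had bounds of 2.36- to 3.13-fold. Olfr283 had -6.02 on the first E14.5 array and -3.64 on the second, so its bound rests on the second.

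Members off on both E13.5 arrays had bounds of at most 3.07-fold. Gys2, the liver form of glycogen synthase, had signals of -8.66 and -6.78 on the E12.5 arrays, -8.84 and -6.41 on the E13.5 arrays and -5.22 and -4.22 on the E14.5 arrays, at least 3.02-fold over E12.5. Sh2d7 reached -6.14 on one E14.5 array and -3.12 on the other, and so rests on the second. Spag16, of the sperm axoneme, had signals of -7.14 and -6.79 on the E12.5 arrays, -7.38 and -7.26 on the E13.5 arrays and -5.13 and -4.84 on the E14.5 arrays. Fbxw13, Slc44a4 (a choline transporter-like gene), Nmur1 (a neuromedin U receptor gene), Cyp2b13, Il1rn (an interleukin 1 receptor antagonist gene), Mybpc2 (a muscle myosin-binding protein gene) and Lemd1 had bounds of 2.07- to 2.85-fold. Cyp2b13 had -3.93 on the first E14.5 array and -6.21 on the second, whose detection limit was -6.24, so its bound rests on the first.

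**Figure D3:**
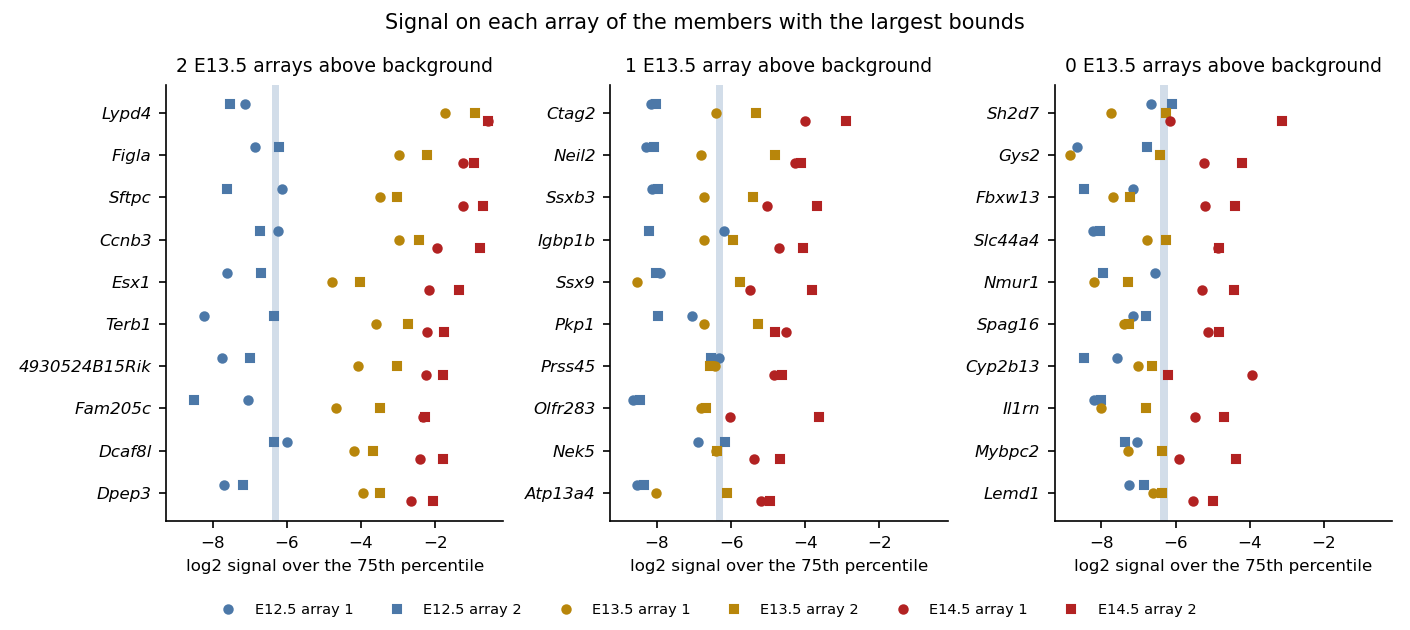
Log2 signal over the array's 75th percentile (horizontal axis) on each of the 6 arrays, for the 10 members with the largest bounds in each class of E13.5 detection. Circles are the first and squares the second array of a stage, and the blue band spans the lowest signals called above background on the E12.5 arrays. In the left panel all E13.5 points lie right of that band; in the right panel the E13.5 points lie on or left of it.

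Over all members, bounds were modest. The 273 members with no other probe above background at E12.5 had a median bound of 2.04-fold, and 142 reached 2-fold, 47 reached 4-fold and 8 reached 16-fold. The medians by E13.5 class were 2.37-fold for 2 arrays, 1.67-fold for 1 and 1.66-fold for 0. Mctp1, Gdap1 and Ttc16 were just inside, with bounds of 1.06- to 1.07-fold. Bcan, Colec10 and BC051019 were just outside, with both E14.5 arrays and 1 E12.5 array above background and E14.5 signals at least 20.8-, 21.6- and 5.75-fold over E12.5. In all, 226 genes missed the rule by 1 E12.5 array.

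In the limma fit, 146 of the 281 members (52.0%) were called higher at E13.5 than at E12.5 and 2 were called lower, against 18.4% of all 13484 genes tested called higher and 13.3% lower. With normexp background correction 229 members were called higher. The E12.5 arrays of that comparison had chosen the members for being dark, so the fit sets E13.5 against signals not above background, and the slides differ. Nothing is read from the count about the members. By class at E13.5, 123 of 185 members on 2 arrays, 17 of 56 on 1 and 6 of 40 on none were called higher.

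The last step, E14.5 against E13.5, lies within 1 slide. Of the members, 251 had a higher mean at E14.5, and the median log2 difference of the 185 measured on both E13.5 arrays was 0.48, against -0.02 for all genes tested. The E14.5 arrays had chosen the members for being bright, so nothing is read from these values. Few differences passed the test: limma called 5 members higher and 0 lower, against 0.0445% of all genes called higher (6 genes) and 0.00742% lower (1 gene). Other settings gave 0 to 19 members: 0 on the 4 later arrays alone, and 0 on leaving out either array of E12.5, array 1 of E13.5 or array 2 of E14.5. Without array 2 of E13.5 the count was 10, and without array 1 of E14.5 it was 11. At an unadjusted p under 0.05, 148 members were higher and 2 lower, against 10.9% of all genes tested higher and 7.52% lower, and the same choice of bright E14.5 arrays bears on these counts.

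The 5 called genes were chosen after their values were seen. Rtl3, an X-linked gene derived from a retrotransposon, had -5.73 and -6.05 at E14.5, against -9.02 and -8.53 at E13.5, and was off at E13.5, so it was at least 1.72-fold higher. Its E14.5 level was at least 1.34-fold over E12.5. Spag16 had -5.13 and -4.84 at E14.5, against -7.38 and -7.26 at E13.5, at least 3.23-fold higher. Its other probe was above background on no array. Pi15, a protease inhibitor gene, had -5.57 and -5.44 at E14.5, against -7.00 and -7.14 at E13.5, at least 2.25-fold higher. Prss45, a serine protease gene, had -4.84 and -4.62 at E14.5, against -6.44 and -6.56 at E13.5, and was measured on 1 of the E13.5 arrays, with a log2 difference of 1.77 ± 0.13. P2ry14, the receptor gene for UDP-glucose, had -4.35 and -4.55 at E14.5, against -5.76 and -5.78 at E13.5, with a log2 difference of 1.32 ± 0.11 (SE, n = 2 arrays per stage). The limma adjusted p was 0.0449 for each of the 5. The calls did not hold under most other settings: with the 4 later arrays alone the adjusted p was 0.0700 to 0.114, and 0.114 to 0.174 when the second E14.5 array was left out.

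For members detected on both E13.5 arrays, this step is measured on both sides. The largest positive differences were those of Esx1 (2.64 ± 0.43, adjusted p = 0.0897), Sftpc (2.28 ± 0.48, 0.106), Svs5 (2.13 ± 0.47, 0.115), Adcy10 (1.93 ± 0.72, 0.240) and Sly (1.89 ± 0.35, 0.0990), as limma log2 differences of E14.5 minus E13.5. Svs5 is a seminal vesicle secretion gene, and Sly is a multicopy Y-linked gene of sperm precursors. None of the 5 passed the limma test. At the other end, Dhrs7c had -4.58 and -5.17 at E14.5, against -4.58 and -3.35 at E13.5, a difference of -0.91 ± 0.53 (adjusted p = 0.409). Nutm1, a testis gene, had -0.76 ± 0.19 (0.135), Camk1d, a calcium-dependent kinase gene, -0.69 ± 0.51 (0.509), Ankdd1b -0.56 ± 0.29 (0.362) and Foxd4, a forkhead gene, -0.53 ± 0.50 (0.604). These 5 were higher on average at E13.5, and none passed the limma test. Camk1d is 1 of 8 members with another probe above background at E12.5, here on both arrays, and carries no bound. Across the class, 156 of 185 members had a higher mean at E14.5, 45 by 2-fold or more, and 140 lay within 2-fold. The choice of genes bright on the E14.5 arrays favours a higher mean there. No share over all genes stands beside these counts, and nothing is read from them.

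**Figure D4:**
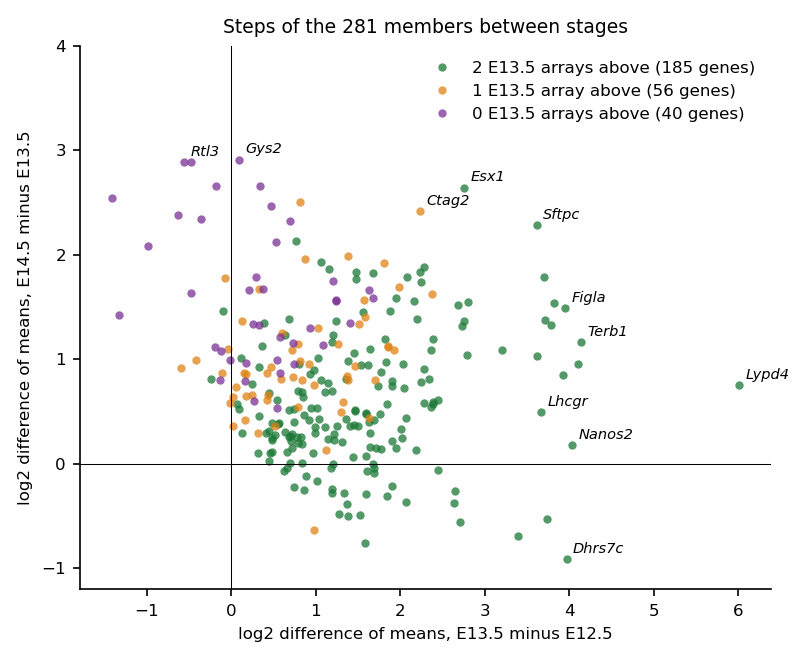
Log2 difference of stage means for each of the 281 members, E13.5 minus E12.5 (horizontal axis) and E14.5 minus E13.5 (vertical axis), coloured by the number of E13.5 arrays above background. Both axes share the E13.5 arrays, the E12.5 and E14.5 arrays chose the members, and no member's probe was above background at E12.5, so the horizontal values are differences of signal and not measured changes. Lypd4 and Nanos2 lie far to the right with small second steps, and Rtl3 and Gys2 lie near zero on the horizontal axis with second steps close to the highest.

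The X chromosome held 22 of the 281 members (7.83%), against 584 of 16620 named genes (3.51%) and 6 of the 132 genes in the opposite state (4.55%). As a share of its own named genes, 3.77% of X-linked genes were members, beside 1.69% over all chromosomes. Of the 47 members with a bound of at least 4-fold, 9 were X-linked: Ccnb3, Esx1, Dcaf8l, Ssxb1, Ctag2, Cypt3, Ssxb2, Tsga8 and Sox3. Sly is on the Y chromosome. The X-linked SSX genes Ssxb1, Ssxb2, Ssxb3 and Ssx9 are close copies, so their probes may read each other's RNA. No test was made of the chromosome shares.

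**Figure D5:**
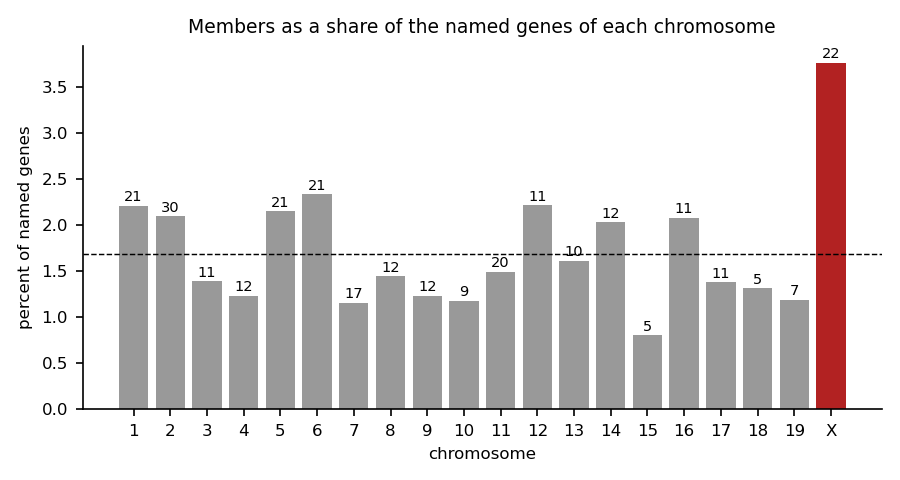
Members as a percent of the named genes of each chromosome (vertical axis), with the number of members above each bar and the share over all named genes, 1.69%, as a dashed line. The X chromosome (red) stands at 3.77%, with 22 members.

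Some members were neighbours. Within 200 kb of each other on the reference assembly lay 21 pairs, made of 37 genes. Pairs were not counted among other genes, so no share stands beside this count and nothing is read from it. Lhcgr and Fshr, the 2 gonadotropin receptor genes, formed one pair, and Hoxd1 and Hoxd11, Aspn and Ecm2, P2ry13 and P2ry14, and Atp13a4 and Atp13a5 formed others. Svs4 and Svs5, and Gbp4, Gbp6 and Gbp8, are related copies, and their probes may share signal. By symbol, 10 of 887 olfactory receptor genes and 9 of 353 solute carrier genes were members, while 13 and 4 were in the opposite state. Over all named genes the shares were 1.69% and 0.794%.

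At E13.5 the second array was the brighter for 206 of the 281 members (73.3%), against 44.7% of all genes tested, and at E14.5 for 193 (68.7%, against 41.1%). At E12.5 the share was 49.8%, against 47.7%. Of the 56 members on 1 array at E13.5, 38 were above background on the first array, which had the lower detection limit, and 18 on the second. In the authors' deposited table of 1 ratio per probe and stage, 266 of the 281 probes were higher at E13.5 than at E12.5, and 239 were higher at E14.5 than at E13.5. That table describes the same samples and is not independent of the scanner signals. The members were chosen as dark at E12.5 and bright at E14.5 in these samples, which favours a rise at either step. No share over all probes stands beside the counts of 266 and 239, and nothing is read from them.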

How the data were processed

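Gene expression was measured in 3 samples of 2 arrays each. The deposited scanner files hold, per their headers, spot intensity from Agilent Feature Extraction (version 9.5, per the submitters' processing notes), background-subtracted and not scaled between arrays, with outlier, saturation and well-above-background flags. The authors also deposited a linear ratio for each probe at each stage, whose denominator is not given in the sources used here.

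Each array's 75th percentile was subtracted from its log2 signals, repeated spots of a probe were averaged, and spots marked as outliers were dropped. RefSeq accessions named 23545 of 41174 probes, from 16620 genes, and 21 probes that lacked a signal on an array were dropped. The E12.5 slide was read with the older of 2 array design files. The newer one gave the names, and 179 probes were named by the older one alone. The brightest probe stood for a gene. Genes above background on both arrays of a stage (13484) were fitted to the 6 arrays with limma 3.58.1 (R 4.3.3) with no covariate (3 residual and 3.01 prior degrees of freedom, two-sided, Benjamini-Hochberg adjusted p under 0.05 over all genes). The fit was tested on simulated data.

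The members, the 14 gene lists and the 15 marker lists were chosen with earlier results of these data known. The text names, in each E13.5 class, the 10 members with the largest bounds, the 5 largest and 5 smallest differences between E14.5 and E13.5 on 2-array members and, besides, at most 8 members per list and the 3 genes nearest the rule's edge on either side. The alternatives were other detection flags, probe rules, background corrections, scalings, filters, priors, a replicate block, the later slide alone and leaving out each array. Promoter windows came from RefSeq (GRCm38.p6). Precision is limited by the number of arrays, and p-values measure the spread between the duplicates.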

Additional observations from a re-analysis of the deposited data

Results flagged for a closer look

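Probes without a gene symbol were set aside, and 331 of the 17608 (1.88%) met the same detection rule, on both E14.5 arrays and on neither E12.5 array, beside 163 in the opposite state. They carry a signal that the gene counts do not use. The highest 10 had bounds of 9.32- to 62.1-fold over E12.5, and each of those 10 was above background on both E13.5 arrays.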

How the results depend on the processing

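The number of switched-on genes was 281 and depended on the flag and on the arrays required. It was 171 with the positive-and-significant flag, and leaving out each E12.5 or E14.5 array gave 322 to 466. It was 274 where no probe of the gene could be above background at E12.5, and 365 with any probe. Members called higher at E13.5 than at E12.5 numbered 146, with 229 under normexp and 105 to 155 on leaving out each array.

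Members called higher at E14.5 than at E13.5 numbered 5. The count was 14 with normexp, 18 with median scaling, 19 with a trend and robust prior and 1 with quantile normalization. It was 0 with no background filter, with the positive-and-significant filter, with the mean of probes, with unnamed probes included and with the 4 arrays of the later slide. Leaving out each array gave 0 to 11. With a replicate block it was 1, and 150 in the comparison of E13.5 with E12.5. Deviations of same-numbered arrays correlated at -0.043 between E12.5 and E13.5 and at -0.060 between E12.5 and E14.5. Between E13.5 and E14.5, on 1 slide, they correlated at 0.229. The main fit took the arrays as unpaired, and whether the array numbers pair the samples was not tested. Median scaling moved the median of all genes to -0.10 between E14.5 and E13.5 and to -0.14 between E14.5 and E12.5. For the 5 called genes all 80 values under alternatives were positive, and 15 passed the threshold (limma adjusted p 0.00635 to 0.302).

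Of 1008 values of the difference between E14.5 and E13.5 in 63 genes, 6 turned sign, none of a called gene, and 21 of the 63 genes were called under some alternative only. Ccl3 (0.10) was -0.0133 with quantile normalization and -0.11 to 0.313 on leaving out each array. Myog (0.15) was -0.169 to 0.467 on leaving out each array. Upk1a (-0.07) was 0.113 with normexp, 0.191 with the mean of probes and -0.193 to 0.0471 on leaving out each array. The causes were not tested. The median bound of the 273 members that carry one was 2.04-fold over E12.5.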

Other observations

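Transcription factor genes of other embryonic tissues were among the members and were chosen here after their values were seen. Sox3, an X-linked factor of the early nervous system, had signals of -7.61 and -7.14 on the E12.5 arrays, -5.79 and -5.22 on the E13.5 arrays and -4.29 and -3.79 on the E14.5 arrays, at least 4.83-fold over E12.5. Ptf1a, a factor of pancreas and neurons, had signals of -6.06 and -8.00 on the E12.5 arrays, -5.93 and -5.18 on the E13.5 arrays and -3.70 and -3.87 on the E14.5 arrays, at least 5.11-fold. The homeobox genes Hoxd1, Hoxd11 and Hoxb8 had bounds of 3.26-, 2.07- and 1.90-fold, and Tbx21, a T cell factor, had one of 3.34-fold. All 6 were above background on both E13.5 arrays.

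Most second probes of the members did not meet the detection rule. Of the members, 47 have 56 other named probes. Of these probes, 4 met the detection rule, for Cldn1, Lrriq3, Slc44a4 and Syt14. A further 36 were above background on no array, among them the other probes of Spag16, Il1rn, Cyp2b13, Olfr283, Fgf21 and Hoxb8. Another 9 were above background on an E12.5 array.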
